A study of Sus scrofa with 46 samples.

Results

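The genes described here copy DNA and open S phase, the stretch of the cell cycle in which the genome is duplicated. They are 44 genes of the 18440 in the liver count table, chosen by symbol from a list of replication and S phase entry genes, and all 44 passed the filter on low counts with 13780 genes tested in all. Liver RNA of 46 piglets was sequenced at 3 days of age, to ask what intrauterine growth restriction (IUGR, poor growth in the womb) and an oral energy supplement did to the liver transcriptome. The piglets were born to Danish Landrace × Danish Yorkshire sows inseminated from DanBred Duroc boars. IUGR was graded by eye from a steep forehead and other signs of the head and coat, not from a weight, and normal-sized piglets lacked those signs. The treated animals got Piggy Boost, an energy-rich paste of colostrum, fatty acids and vitamins given by mouth. Of the normal-sized piglets 11 went without the paste and 12 received it, and of the IUGR piglets 10 went without and 13 received it. Colostrum came from the dam, and every animal was fostered afterwards. Piglets of several groups came from the same sow, but the labels give no litter, week of sampling or sex.

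Before a cell divides, the origin recognition complex, CDC6 and CDT1 load the ring of MCM proteins on DNA. The E2F transcription factors switch on most of these genes. Kinases, cyclin E with CDK2 among them, and firing factors then start the loaded ring as a helicase, and polymerases, the sliding clamp PCNA, ligase, nucleotide enzymes and histone chaperones copy and repackage the strand. Hepatocytes of a newborn still multiply, and blood-forming cells, which also cycle fast, leave the liver around birth. RNA of whole liver mixes all of these, so that fewer cycling cells and less RNA per cycling cell cannot be told apart.

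The 46 libraries held 15036591 to 19340218 estimated counts, with 15720 to 16196 genes detected. Albumin (ALB) stood at 19900 to 142000 CPM (counts scaled by TMM to a common library size, the level used throughout), and the hepatocyte transcription factor HNF4A at 184 to 505 CPM, so hepatocyte RNA was present in every library. The libraries of pigs 38 (IUGR untreated), 39 and 46 (both IUGR treated) stood apart. Their median correlation with the other libraries across genes was 0.765 to 0.843, against 0.953 to 0.966 for the other 43. Groups were read from the pig number above each column, and it is doubtful whether every number is above its own column. Of 5 genes that the study names as changed in untreated IUGR piglets, 0 passed the threshold under these headings in edgeR's quasi-likelihood test. Of these, 1 had an unadjusted p under 0.05. This test called only 5 genes lower and 1 higher of 13780, and the study used DESeq2, so the 0 does not decide the matter. PDK4, CEL and SDF2L1 had the study's direction (log2 fold change 0.33, 1.22 and -0.12). CXCL12 and ENHO had the opposite one (0.06 and 0.62). Every value given here by pig or by group rests on these headings, whereas ranges over all 46 libraries and correlations between genes over all 46 do not.

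The summed level of the 44 genes differed 4.01-fold between livers, from 694 CPM in pig 53 (IUGR treated) to 2787 CPM in pig 34 (normal untreated). In untreated normal-sized piglets the lowest, median and highest sums were 858, 1708 and 2787 CPM. They were 918, 1091 and 1756 CPM in treated normal-sized piglets. Untreated IUGR piglets gave 800, 1095 and 1330 CPM, and treated IUGR piglets 694, 1125 and 1773 CPM. The groups overlapped, and the untreated normal-sized group had both the highest median and the widest spread.

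**Figure D1:**
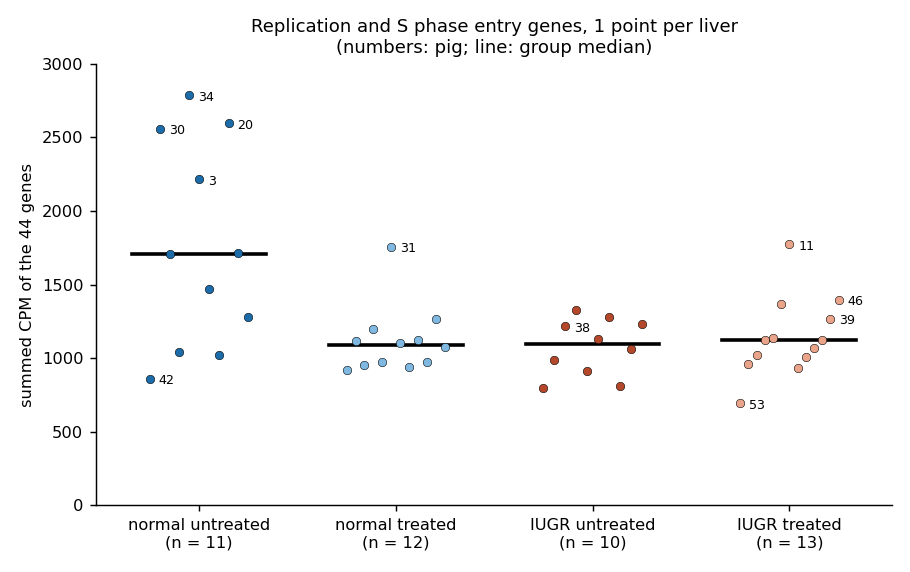
Summed CPM of the 44 genes (vertical axis, from 0) in each of the 46 livers, by labelled group; points are livers, lines are group medians and numbers are pigs. Pigs 34, 20, 30 and 3 of the untreated normal-sized group sit between 2214 and 2787 CPM, and no other liver exceeds 1773 CPM.

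Much of that spread came from 4 animals. Pig 34 was at 2787, pig 20 at 2595, pig 30 at 2558 and pig 3 at 2214 CPM, and the other 7 untreated normal-sized livers lay between 858 and 1718 CPM, inside the range of 694 to 1773 CPM of the 35 livers of the other groups. As a second measure, each gene's log2 CPM was standardised over the 46 livers and averaged over the 44 genes. This mean was 2.19, 2.04, 1.96 and 1.69 SD in pigs 34, 20, 30 and 3. Pig 31 (normal treated) followed at 1.05, pig 48 (normal untreated) at 1.02 and pig 11 (IUGR treated) at 0.94. These 4 livers were picked by their level of the same genes, so the counts that follow are a description. Of the 44 genes, 39 had their highest value in pig 34, 20, 30 or 3, beside 12.2% of all genes tested, and for 24 genes these were the 4 highest livers of all, beside 1.3%. In 39 genes all 4 exceeded each untreated IUGR liver, beside 5.32% of all genes. At the other end, 10 genes were lowest in pig 53, 9 in pig 46 and 8 in pig 39. No share over all genes is given for these 3 counts, and pigs 39 and 46 stand apart across the genome. The counts therefore cannot be read as particular to the 44 genes. The 4 livers stand side by side in the deposited table, in its columns 28 to 31, where the columns run by group and within a group by pig number sorted as text.

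**Figure D2:**
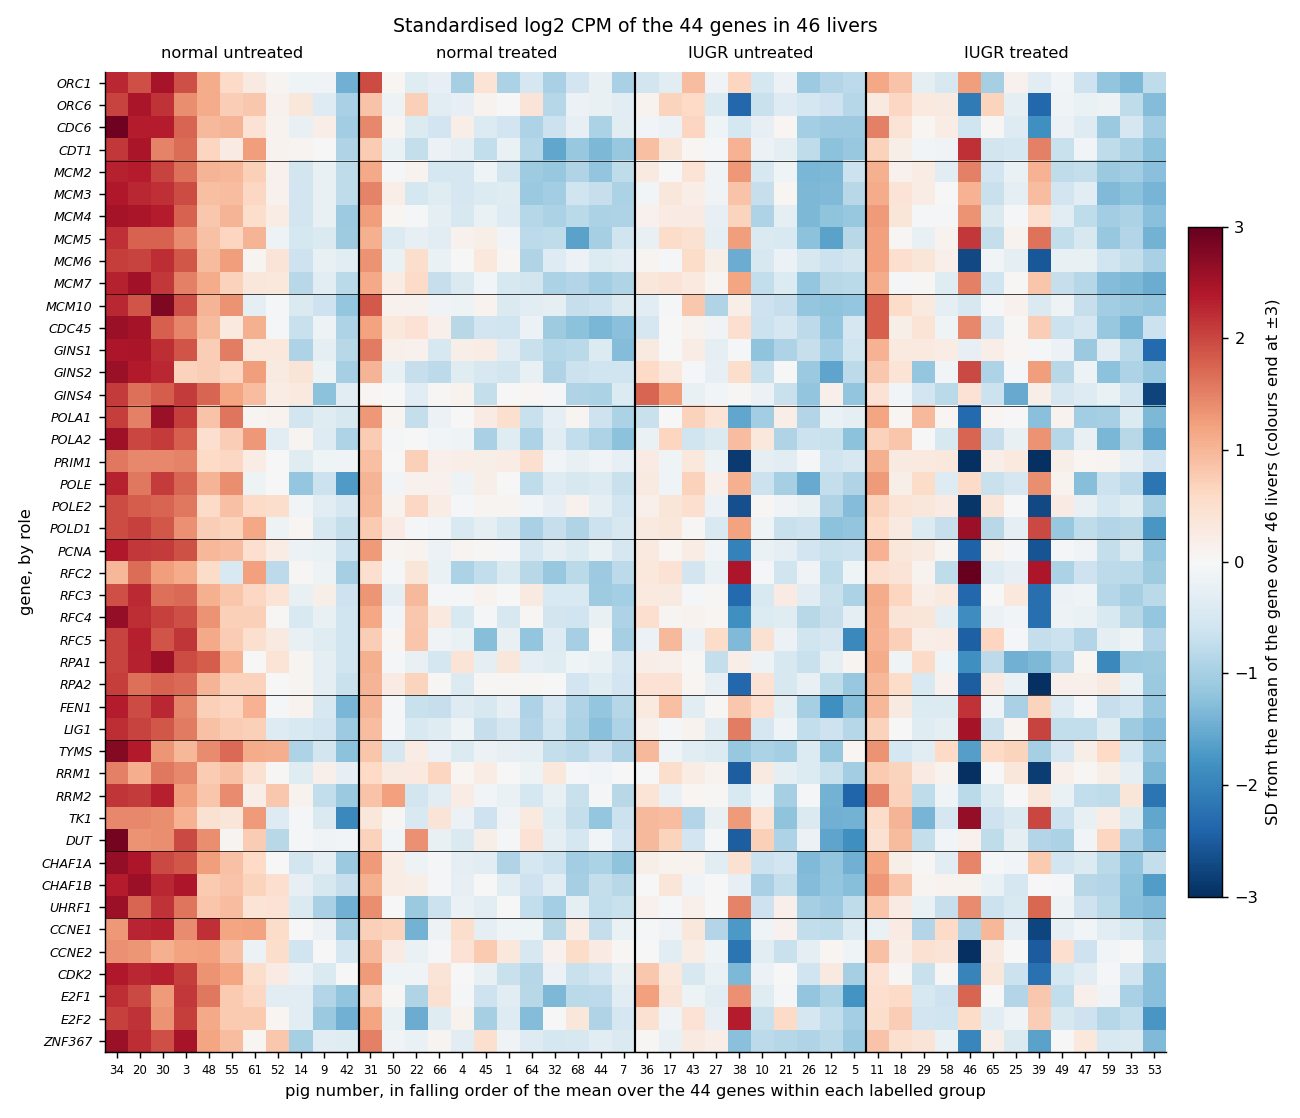
Standardised log2 CPM of the 44 genes (rows, by role) in the 46 livers (columns, by labelled group and falling mean); red is above and blue below the mean of the gene, in SD over 46 livers. Pigs 34, 20, 30 and 3 are red from top to bottom, whereas pigs 38, 39 and 46 are red for some genes and blue for others.

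In untreated piglets, IUGR was compared with normal size to ask what growth restriction did to liver RNA. The log2 fold change was negative for all 44 genes, as for 49% of all genes tested, with a median of -0.74 beside 0.01 over all genes, and a range from -1.16 (ZNF367) to -0.12 (RFC2). Their standard errors were 0.10 to 0.34. In edgeR's quasi-likelihood test with Benjamini-Hochberg adjustment over all 13780 genes, 2 of the 44 fell past the threshold of 0.05, CHAF1B and ZNF367, beside 0.0363% of all genes in that direction. At an unadjusted p under 0.05, 41 genes were lower and 0 higher, beside 6.09% and 6.45% of all genes. The count of 2 leaned on the libraries and the tool. Shares over all genes in these other settings are not given, here or below. The shifts therefore cannot be read as particular to the 44 genes. It was 27 without pigs 38, 39 and 46, and 21, 15, 10 and 10 without pigs 42, 9, 14 and 52 of the normal-sized group. It was 4 without pig 36 and 3 without pig 10 of the IUGR group, 1 without pig 48, and 0 without any 1 of pigs 3, 20, 30, 34, 55, 5, 12, 21, 26, 27, 38 and 43. DESeq2 on all 4 groups gave 21, whereas edgeR gave 0 with DESeq2 size factors, on the 2 groups alone, when no gene was filtered out and with surrogate variables as covariates. With surrogate variables the median log2 fold change was -0.27.

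CHAF1B, a subunit of chromatin assembly factor 1, which sets histones on freshly copied DNA, is found on chromosome 13 (Sscrofa11.1, 200048096 to 200074902). In untreated normal-sized piglets it was at 22.8, 21.4, 20.9 and 20.0 CPM in pigs 20, 3, 34 and 30, and at 5.74 to 11.06 CPM in the other 7. Its lowest, median and highest values were 5.00, 6.83 and 12.1 CPM in treated normal-sized, 4.39, 6.30 and 8.98 CPM in untreated IUGR and 3.73, 7.52 and 13.3 CPM in treated IUGR piglets. Of the 11 untreated normal-sized livers, 8 exceeded all 10 untreated IUGR livers, and the remaining 3 overlapped with them. CHAF1B fell 2.11-fold in untreated IUGR piglets (13.2 ± 6.64 against 6.27 ± 1.63 CPM, SD, n = 11 and 10; log2 fold change -1.07, standard error 0.22, edgeR adjusted p = 0.0496). ZNF367, a zinc finger protein gene on chromosome 10 from 25707711 to 25735073, was at 41.4, 39.1, 34.7 and 30.5 CPM in pigs 34, 3, 20 and 30 and between 7.83 and 21.6 CPM in the other 7. In untreated IUGR piglets its lowest, median and highest values were 6.99, 8.62 and 14.2 CPM. Only pigs 34, 3, 20, 30, 48, 55 and 52 of the normal-sized group lay above that range. ZNF367 fell 2.24-fold in untreated IUGR piglets (log2 fold change -1.16, standard error 0.24, edgeR adjusted p = 0.0496). Over the 9 alternative analyses the adjusted p ran from 0.00431 to 0.167 for CHAF1B and from 0.00448 to 0.212 for ZNF367, with 5 of 9 under the threshold for each.

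The 4 licensing genes had log2 fold changes of -1.14 to -0.67 in untreated IUGR piglets, with a median of -0.79. CDC6, the loader that brings the MCM ring to the origin, was at 5.59, 15.1 and 38.9 CPM (lowest, median and highest) in untreated normal-sized and at 5.45, 8.46 and 12.9 CPM in untreated IUGR piglets. Its log2 fold change of -1.14 (standard error 0.26) missed the threshold (edgeR adjusted p = 0.0610). ORC6, the smallest subunit of the origin recognition complex, was at 4.04, 8.58 and 17.2 against 2.21, 4.99 and 8.07 CPM (log2 fold change -0.87, edgeR adjusted p = 0.0701). For both genes the 4 high livers account for the top of the normal-sized range, and the lower parts of the ranges overlap. CDT1, the partner of CDC6 in loading, was at 5.81, 11.5 and 25.4 against 5.03, 8.29 and 13.8 CPM, with a log2 fold change of -0.67. ORC1, the large ATPase of the origin complex, had a log2 fold change of -0.71.

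The helicase core, MCM2 to MCM7, gave negative values for 6 of 6 genes (median log2 fold change -0.80, smallest difference -0.53 for MCM7). All 6 had an unadjusted p under 0.05 and 0 passed the threshold in edgeR, with a smallest adjusted p of 0.0778. MCM4 was at 30.6, 67.2 and 135 CPM in untreated normal-sized and at 27.7, 43.3 and 63.6 CPM in untreated IUGR piglets, and 6 of the 11 normal-sized livers exceeded every IUGR liver. MCM6 was at 35.9, 79.0 and 151 against 23.2, 41.9 and 64.9 CPM, and MCM5 at 12.6, 28.3 and 48.9 against 10.2, 17.0 and 33.2 CPM. The highest untreated IUGR values of MCM4 and MCM5 and the lowest of MCM6 were those of pig 38, a library that stands apart. The genes that turn the loaded ring into a moving helicase gave a median log2 fold change of -0.79 over 5 genes. Among them GINS1, of the GINS complex that travels with the helicase, was at 5.53, 11.0 and 22.1 against 4.94, 6.78 and 9.08 CPM (log2 fold change -0.92). MCM10, which joins in firing the origin, was at 14.7, 34.8 and 69.8 against 14.4, 17.8 and 31.9 CPM (-0.88), and GINS4 at 11.6, 25.8 and 34.8 against 11.8, 16.7 and 31.0 CPM (-0.48). Of these 3, GINS1 had 8 of 11 normal-sized livers above all untreated IUGR livers and GINS4 had 4. CDC45, the third partner of the moving helicase, and GINS2 had log2 fold changes of -0.79 and -0.70.

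Polymerase and primase genes had log2 fold changes of -1.11 to -0.63, all 6 with an unadjusted p under 0.05 and 0 past the threshold. POLA1, the catalytic subunit of the polymerase that extends the RNA primer, was at 9.09, 14.4 and 25.5 CPM in untreated normal-sized and at 6.53, 10.1 and 13.7 CPM in untreated IUGR piglets (-0.63). POLE, the catalytic subunit of the leading strand polymerase, was at 12.9, 39.6 and 67.6 against 13.9, 22.4 and 40.6 CPM (-0.64). Its smaller partner POLE2 was at 3.97, 7.83 and 18.2 against 0.991, 4.98 and 7.45 CPM (-1.11). The lowest values of POLA1 and POLE2 in untreated IUGR piglets came from pig 38, that of POLE from pig 26. PRIM1, the primase that lays the RNA primer, had a log2 fold change of -1.08 and the largest standard error, 0.34. POLA2 and POLD1, a subunit of the first and the catalytic subunit of the lagging strand polymerase, had -0.68 and -0.64.

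The clamp PCNA was at 24.3, 49.2 and 94.9 CPM in untreated normal-sized and at 13, 29.1 and 37.1 CPM in untreated IUGR piglets, with 7 of 11 normal-sized livers above all IUGR livers (log2 fold change -0.95, standard error 0.23, edgeR adjusted p = 0.0675). RFC4, of the clamp loader that opens PCNA around DNA, was at 12.6, 22.2 and 50.6 against 7.29, 14.2 and 20.1 CPM (-0.93). RPA1, the large subunit of the protein that coats single strands, was at 19.9, 27.4 and 36.7 against 19.5, 22.1 and 23.2 CPM (-0.36). RPA1 thus had a small difference and a tight IUGR range. Another clamp loader gene, RFC2, stood out by its small difference (-0.12, unadjusted p = 0.474). It was at 27.5, 41.1 and 55.1 CPM in untreated normal-sized and at 29.3, 34.6 and 66.6 CPM in untreated IUGR piglets, and the highest IUGR value was that of pig 38. Without pig 38 the log2 fold change of RFC2 was -0.24 (unadjusted p = 0.130). The remaining loader and coat genes RFC3, RFC5 and RPA2 had log2 fold changes of -1.02, -0.42 and -0.77. For the joining of Okazaki fragments, the short pieces of the lagging strand, FEN1, the nuclease that trims their ends, was at 17.1, 35.2 and 61.9 against 14.5, 26.4 and 37.3 CPM (-0.54). LIG1, the ligase that seals them, was at 15.7, 28.3 and 45.0 against 16.9, 20.6 and 36.2 CPM (-0.43).

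TYMS, thymidylate synthase, which makes the thymine nucleotide, was at 146 and 123 CPM in pigs 34 and 20. The untreated normal-sized group ranged from 22.1 over 67.4 to 146 CPM and the untreated IUGR group from 23 over 32.7 to 62.8 CPM (log2 fold change -1.09, standard error 0.25, edgeR adjusted p = 0.0610). RRM2, the regulated subunit of ribonucleotide reductase, which makes deoxynucleotides, was at 75.8, 173 and 326 against 43.9, 113 and 144 CPM (-0.91). TK1, the thymidine salvage kinase, was at 14.5, 40.5 and 61.7 against 18.0, 29.1 and 57.5 CPM (-0.38, standard error 0.26, unadjusted p = 0.160). RRM1, the large reductase subunit, and DUT, which clears dUTP, had log2 fold changes of -0.47 and -0.56. Of the chromatin genes beside CHAF1B, its partner CHAF1A was at 10.4, 21.5 and 40.6 against 9.26, 13.3 and 18.5 CPM (-0.80). UHRF1, which binds hemimethylated DNA behind the fork, was at 15.3, 36.8 and 72.4 against 17.4, 26.6 and 47.7 CPM (-0.58).

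Among the genes that control entry into S phase, CCNE1, cyclin E1, was at 5.96, 13 and 19.4 CPM in untreated normal-sized and at 4.60, 7.73 and 9.62 CPM in untreated IUGR piglets. Of its 11 normal-sized livers 8 lay above all untreated IUGR livers, and its log2 fold change of -0.81 (standard error 0.18) was just short of the threshold (edgeR adjusted p = 0.0504). Its kinase CDK2 was at 27.6, 42.9 and 59.7 against 21.4, 29.4 and 38.7 CPM (-0.55, edgeR adjusted p = 0.0684). E2F2, of the activating E2F factors, was at 6.54, 14.3 and 23 against 7.57, 10.2 and 24.7 CPM, with the highest IUGR value again in pig 38 (-0.35, unadjusted p = 0.0938). Without pig 38 it was -0.53 (unadjusted p = 0.00789, edgeR adjusted p = 0.318). With all libraries E2F2 was, with RFC2 and TK1, 1 of the 3 genes above an unadjusted p of 0.05. E2F1 and CCNE2, the second cyclin E, had log2 fold changes of -0.57 and -0.99.

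**Figure D3:**
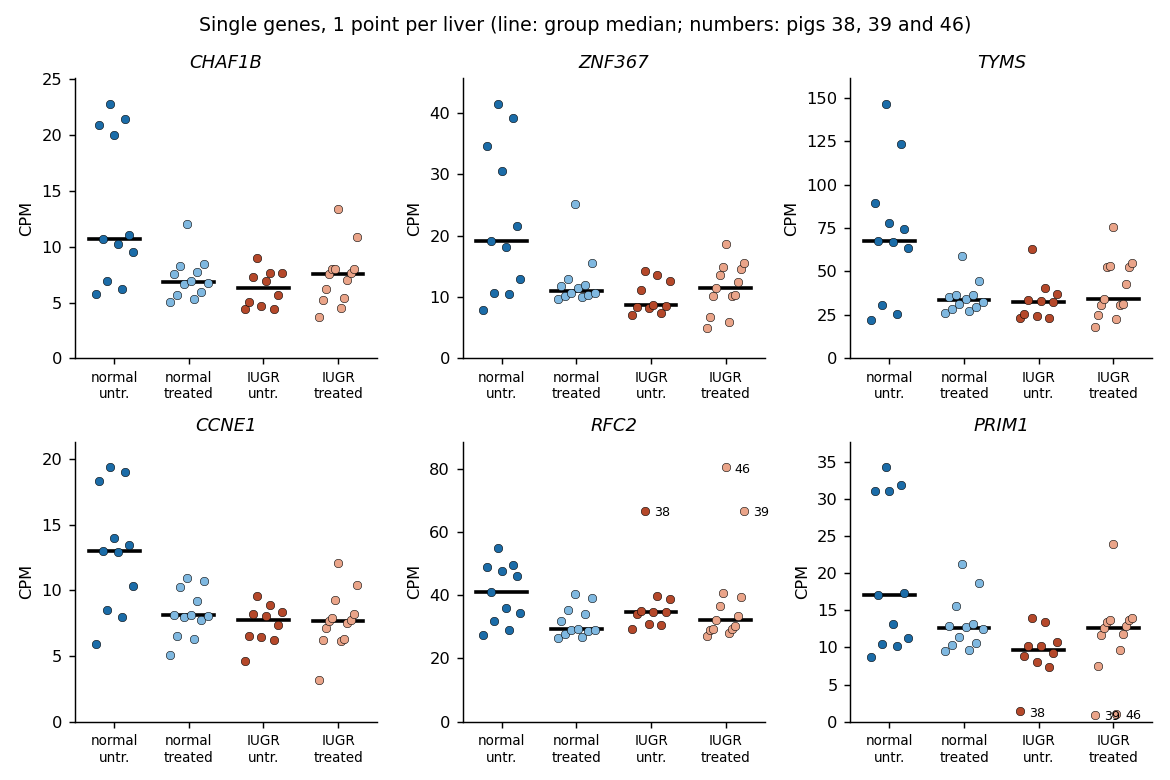
CPM (vertical axis, from 0) of CHAF1B, ZNF367, TYMS, CCNE1, RFC2 and PRIM1 in each liver, by labelled group; points are livers, lines are group medians, and numbers mark pigs 38, 39 and 46 for RFC2 and PRIM1. CHAF1B shows 4 untreated normal-sized livers at 20.0 to 22.8 CPM above all the others, and RFC2 and PRIM1 show pigs 38, 39 and 46 beyond the rest in opposite directions.

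In treated piglets the same comparison gave 20 negative and 24 positive log2 fold changes (47.5% negative over all genes), with a median of 0.03 beside 0.02 over all genes. In edgeR 0 of the 44 genes passed the threshold, beside 0.00726% of all genes. The same count was 0 in DESeq2 and in limma voom with sample quality weights, the voom fit used throughout. At an unadjusted p under 0.05, 0 were lower and 1 was higher, beside 3% and 13.7% of all genes. The 1 gene was CDT1, at 4.35, 6.29 and 12.1 CPM in treated normal-sized and 5.00, 8.30 and 22.7 CPM in treated IUGR piglets (log2 fold change 0.47, edgeR adjusted p = 0.285). The highest CDT1 value was that of pig 46, and the log2 fold change was 0.29 without pig 46 (unadjusted p = 0.169) and 0.14 without pigs 38, 39 and 46 (unadjusted p = 0.470). The 95% intervals of the 44 log2 fold changes lay between -0.91 and 0.92 in all. For CHAF1B the medians were 6.83 and 7.52 CPM, and the log2 fold change was 0.03 with a 95% interval from -0.37 to 0.43.

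For the supplement, treated were compared with untreated piglets of each size. Normal-sized piglets had 44 negative log2 fold changes (50.9% over all genes), with a median of -0.70 beside 0.00 over all genes and a range from -1.05 (CDC6) to -0.25 (RRM1). In edgeR 0 genes passed the threshold, beside 0% of all genes, and the smallest adjusted p was 0.135. At an unadjusted p under 0.05, 41 were lower and 0 higher, beside 5.45% and 3.08% of all genes. The count past the threshold was 10 in DESeq2 on all 4 groups and 34 in limma voom. It was 18 without pigs 38, 39 and 46, 15 without pig 31 and 12 without pig 42. With surrogate variables the median was -0.32. This comparison shares the 11 untreated normal-sized libraries with that of untreated IUGR piglets. TYMS, with the smallest p here, was at 22.1, 67.4 and 146 CPM without and at 25.8, 33.5 and 58.8 CPM with the supplement (log2 fold change -1.03, standard error 0.24, edgeR adjusted p = 0.135), and the highest treated value was that of pig 31. In IUGR piglets 5 log2 fold changes were negative (42.8% over all genes) and 39 positive, with a median of 0.09 beside 0.02 over all genes. There 0 genes passed the threshold and 0 had an unadjusted p under 0.05 in edgeR, beside 0.029% of all genes past the threshold and 1.65% lower and 2.9% higher at the unadjusted one. By DESeq2 or limma voom 0 passed. GINS4, with the smallest p, was at 11.8, 16.7 and 31.0 CPM in untreated and at 6.96, 14.8 and 20.2 CPM in treated IUGR piglets (log2 fold change -0.26, unadjusted p = 0.122).

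**Figure D4:**
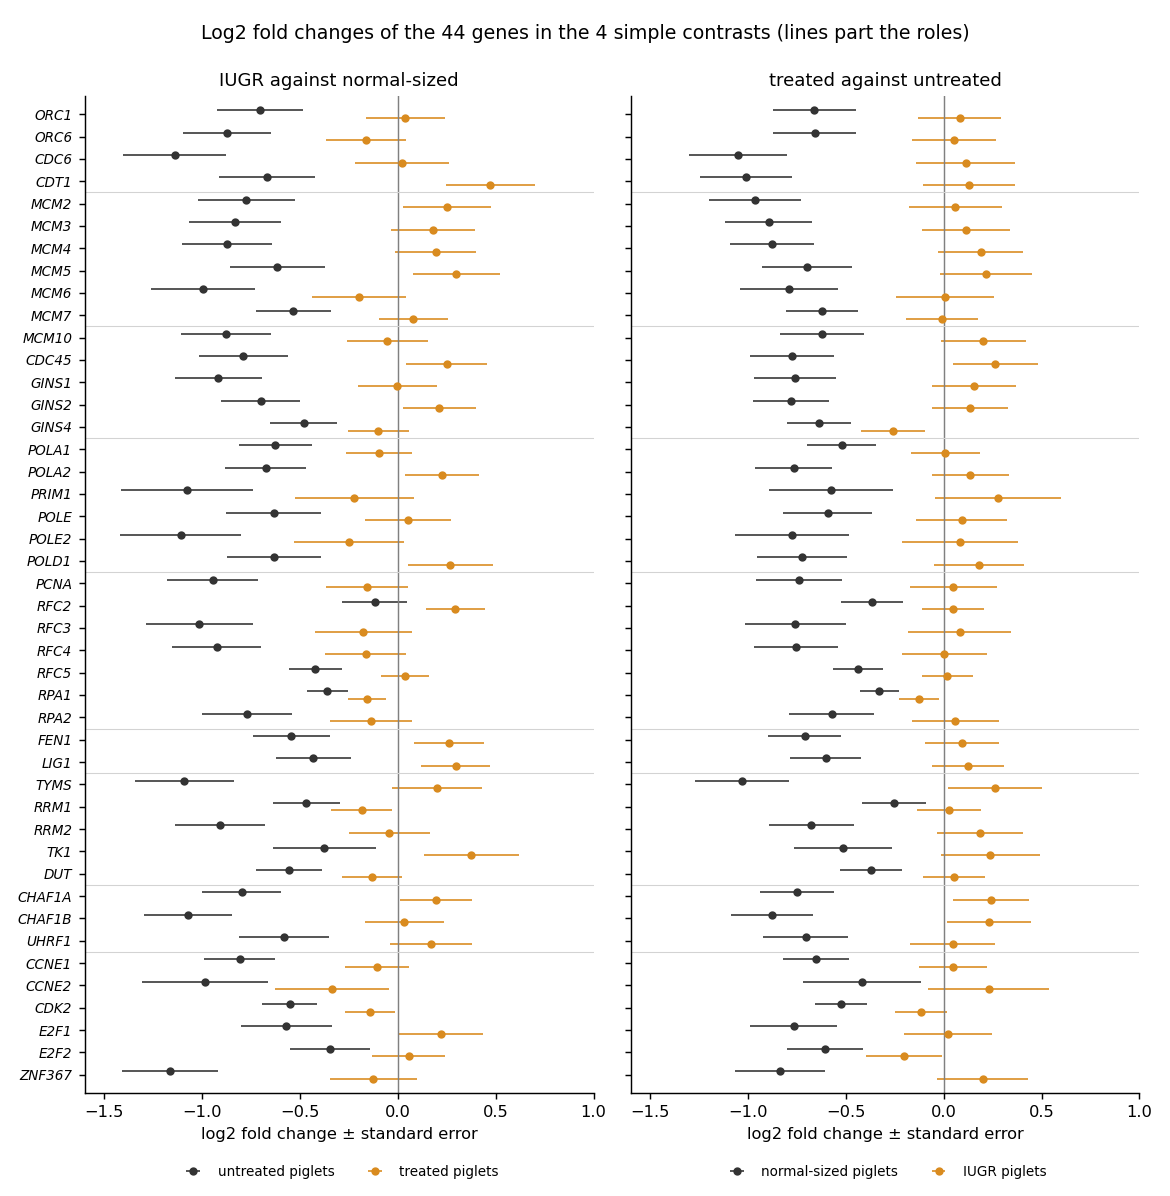
Log2 fold change (horizontal axis) with its standard error for each of the 44 genes, ordered by role; left, IUGR against normal-sized piglets, and right, treated against untreated piglets. The 2 series that share the untreated normal-sized libraries are negative for all 44 genes, with medians of -0.74 and -0.70, and the other 2 lie around medians of 0.03 and 0.09.

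Whether the IUGR difference itself changed with the supplement was tested as a difference of the 2 contrasts. All 44 estimates were positive, where 45% over all genes were negative, with a median of 0.79 beside 0.03 over all genes. The IUGR difference had a median of -0.74 in untreated and of 0.03 in treated piglets. All these estimates again share the 11 untreated normal-sized libraries, the 4 high livers among them. In edgeR 0 genes passed the threshold, beside 0% of all genes, with a smallest adjusted p of 0.235 for TYMS (1.29, standard error 0.34). At an unadjusted p under 0.05 there were 36 higher and 0 lower, beside 4.44% and 2.22% of all genes, and DESeq2 and limma voom also called 0. With surrogate variables the median was 0.31. CHAF1B gave 1.11 (standard error 0.30, edgeR adjusted p = 0.257). Over both levels of the supplement together the median log2 fold change of IUGR was -0.33, and -0.11 with surrogate variables. There 43 of 44 estimates were negative (48.1% over all genes), 28 were lower and 0 higher at an unadjusted p under 0.05 (6.94% and 15.8% of all genes), and 0 passed the threshold in edgeR, beside 0% of all genes. DESeq2 on all 4 groups called 9 and limma voom 1. POLE2 had the most negative estimate and RFC2 the only positive one (0.09).

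Treated IUGR piglets were also compared with untreated normal-sized ones, again with the same 11 libraries as reference. All 44 log2 fold changes were negative (45.1% over all genes), with a median of -0.65 beside 0.03 over all genes. At an unadjusted p under 0.05, 40 were lower and 0 higher (6.38% and 10.2% of all genes), and 9 fell past the threshold in edgeR, beside 0.283% of all genes in that direction. They were CDC6, GINS4, PCNA, RFC4, RPA1, CHAF1B, CCNE1, CDK2 and ZNF367. CDK2 had the smallest p. It was at 27.6, 42.9 and 59.7 CPM in untreated normal-sized and at 16.8, 26.8 and 34.9 CPM in treated IUGR piglets, and fell 1.59-fold (log2 fold change -0.67, standard error 0.13, edgeR adjusted p = 0.0152). RPA1 followed, at 19.9, 27.4 and 36.7 against 15.4, 18.9 and 27.7 CPM, and fell 1.4-fold (-0.49, standard error 0.10, edgeR adjusted p = 0.0163). GINS4 fell 1.67-fold (adjusted p = 0.0214), CCNE1 1.69-fold (0.0272), RFC4 1.90-fold (0.0342) and ZNF367 1.95-fold (0.0354), all by edgeR. CDC6 fell 2.04-fold and PCNA 1.86-fold (adjusted p = 0.0387 for each), and CHAF1B 1.80-fold (0.0454), in the same test. The groups overlapped for each of the 9 genes. The count was 10 without pigs 38, 39 and 46. It was 4 in DESeq2 on these 2 groups or with pig number as a covariate, and 0 in edgeR on these 2 groups alone or with surrogate variables, where the median was -0.27. Of the untreated normal-sized group, it was 17 without pig 42, 14 without pig 14, 2 without pig 3, 34 or 48, 1 without pig 20 and 0 without pig 30. Of the treated IUGR group, it was 18 without pig 11, 5 without pig 25 or 59, 4 without pig 33 or 39 and 3 without pig 46 or 53.

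The 44 genes moved together from liver to liver. The median Pearson correlation between pairs of the 44 over 46 libraries was 0.69, with 97.9% of pairs positive, beside -0.0043 and 49.6% for pairs of all tested genes. It was 0.84 without pigs 38, 39 and 46, with 100% positive, and 0.62 with labelled group means removed. The points share library, depth and scaling, and the 4 high livers carry weight in each value. Within roles, the 6 MCM ring genes had a median of 0.92, the 3 chromatin genes 0.90 and the pair FEN1 and LIG1 0.89, whereas the polymerase and primase genes had 0.45. CHAF1B followed the mean of the other 43 genes most closely (r = 0.96) and CCNE2 least (0.47). PCNA followed it at 0.81 in all 46 libraries and at 0.99 without the 3 that stand apart, and CCNE2 at 0.77 without them.

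In pigs 38, 39 and 46, which stand apart across the genome, the 44 genes split about the median much as genes at large did. Of the 44, 20 stood above the median of the other 43 livers in all 3, beside 43.1% of all genes tested, 18 stood below it in all 3, beside 41.2%, and 6 were mixed. PRIM1 was at 1.4, 0.953 and 1.04 CPM in pigs 38, 39 and 46, where the other 43 livers ranged from 7.33 to 34.2 CPM. CCNE2 was at 1.98, 1.61 and 0.382 CPM against 5.57 to 22.9 CPM, and POLE2 at 0.991, 0.953 and 0.819 CPM against 2.41 to 18.2 CPM. In all, 11 genes lay below the lowest of the 43 in each of the 3: PRIM1, CCNE2, POLE2, RFC3, RPA2, MCM6, PCNA, RRM1, ORC6, RFC4 and CDK2. This was so for 27.4% of all genes. RFC2 was the only 1 of the 44 above the highest of the 43 in each, at 66.6, 66.6 and 80.5 CPM against 26.5 to 55.1 CPM, beside 19.1% of all genes above in this way. Genes of a shared complex thus parted, with RFC2 above and RFC3 and RFC4 below, and MCM6 below while MCM2, MCM3, MCM4, MCM5 and MCM7 stood above the median. Other cell types stood apart in these livers too. Macrophage markers summed to 2450, 3190 and 3230 CPM in pigs 38, 39 and 46, above the 1120 to 2020 CPM of the other 43, and T and NK cell markers to 32.9, 46 and 45 CPM, above 8.71 to 31.1 CPM. Hepatocyte markers summed to 139000, 98200 and 120000 CPM, against 100000 to 227000 CPM. The part of these cells in the split was not tested.

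**Figure D5:**
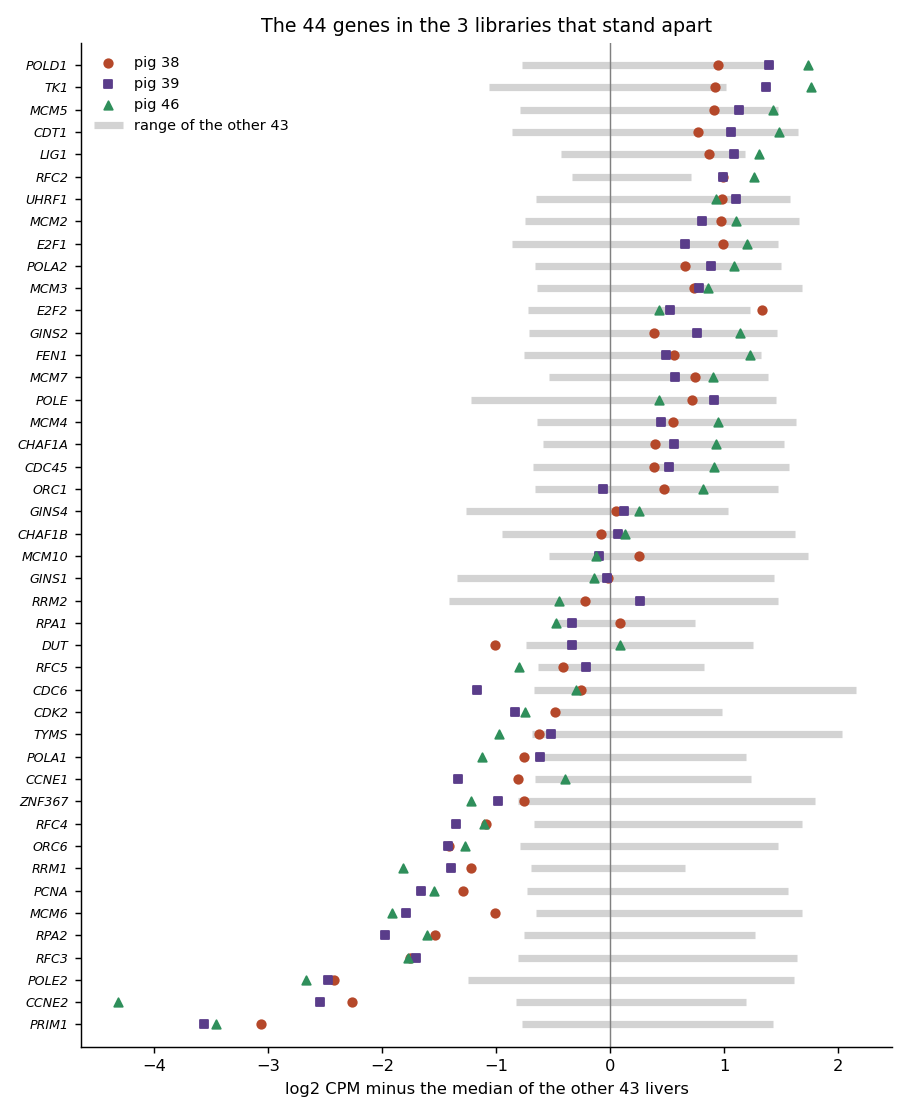
Log2 CPM of each of the 44 genes in pigs 38, 39 and 46 minus the median of the other 43 livers (horizontal axis); grey bars span the other 43 livers. PRIM1, CCNE2 and POLE2 lie far to the left of their bars and RFC2 to the right of its bar in all 3 livers.

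Outside the 44 genes, the rest of the replication machinery leaned the same way with smaller differences. Of 46 tested genes 45 had negative values in untreated IUGR piglets (median -0.50), 31 had an unadjusted p under 0.05, and 0 passed the threshold in edgeR. PRIM2, the partner of PRIM1, was at 9.13, 16.7 and 24.9 CPM in untreated normal-sized and at 7.34, 9.53 and 12.8 CPM in untreated IUGR piglets (-0.75, edgeR adjusted p = 0.0504). In treated IUGR against untreated normal-sized piglets 4 of these genes fell past the threshold in edgeR, PRIM2, NASP and POLD3 among them (log2 fold changes -0.78, -0.62 and -0.59, adjusted p = 0.0163, 0.0191 and 0.0435). Genes of mitosis, the later stage in which the copied chromosomes part, had 26 of 26 negative values in untreated IUGR piglets with a smaller median, -0.31. Only 2 of them, NUSAP1 (-0.48) and NDC80 (-0.72), had an unadjusted p under 0.05, and 0 passed. MKI67, the proliferation antigen, was at 52.9, 172 and 260 against 105, 158 and 268 CPM (-0.01), so the groups had near-equal levels. Of 13 G1 cyclin and kinase genes 10 were negative (median -0.38). The growth factor response gene MYC went the other way, at 9.87, 13.9 and 60.1 against 20.6, 40.2 and 208 CPM (1.501, edgeR adjusted p = 0.118), and E2F8, a repressive E2F, had -0.64. Of 17 brakes on S phase entry 10 were negative (median -0.03), with RBL1 at -0.53 and LIN9 at -0.54, and 0 passed.

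Cell type markers were set beside these differences for untreated IUGR against normal-sized piglets, and 0 of them passed the threshold in edgeR. Erythroid markers leaned higher. Of 15 tested, 14 were positive and 12 had an unadjusted p under 0.05 (median 1.19), with ANK1 at 1.44 and SLC4A1 at 1.78. TFRC alone was negative (-0.25). Their summed level was 69.7, 217 and 278 CPM in untreated normal-sized and 104, 242 and 501 CPM in untreated IUGR piglets, and 69.7 to 233 CPM in the 4 livers with high replication genes. A sum weighs the most abundant markers most, and its group medians differed by less than the median log2 fold change. Bile duct markers had 4 of 5 positive (KRT19 1.05, SPP1 0.65, median 0.12). Hepatocyte markers had 4 of 9 positive (SERPINA1 0.78, AHSG 0.33, median -0.04), and their sum in the 4 high livers, 160000 to 194000 CPM, lay inside the range of the other 42, 98200 to 227000 CPM. T and NK cell markers had 3 of 7 positive log2 fold changes (CD4 0.51, NKG7 0.43, median -0.12). For B and plasma cells 2 of 4 were positive (PAX5 0.68, median 0.12). Macrophage markers had 8 of 10 positive (CLEC4F -0.79, CD14 0.28, median 0.13). For neutrophils and their progenitors 7 of 8 were positive (CXCR2 0.32, MPO 0.56, median 0.19). Megakaryocyte markers had 3 of 3 positive (GP9 0.27, PPBP 0.47, median 0.27). Of endothelial markers 5 of 8 were positive (LYVE1 -0.36, STAB1 0.21, median 0.09). Stellate cell markers had 7 of 9 positive (RGS5 -1.06, PDGFRB 0.32, median 0.21). The B cell genes MS4A1 and CD79A did not exceed 0.597 and 0.709 CPM in any liver. The part of these cell types in the replication genes' differences was not tested.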

How the data were processed

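The authors mapped clean paired-end reads to Sscrofa11.1 with Bowtie2 and deposited estimated counts for 18440 genes in 46 libraries, neither scaled for depth nor for gene length. Which program counted the reads is not stated in the paper, the labels or the table. Of the values 85.9% are whole numbers exactly (tolerance 0), and the rest were rounded. Groups came from the pig number heading each column, and 0 columns were without a sample. Piglets are the replicates, and some share a litter.

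All 46 libraries entered a single edgeR fit (4.0.16, R 4.3.3) with a mean per group, by the robust quasi-likelihood method after TMM scaling and filterByExpr at a minimum count of 10. P-values were Benjamini-Hochberg adjusted over 13780 genes, with 0.05 as the threshold. Log2 CPM used a prior count of 2, and 95% intervals span 1.96 standard errors on each side. The code of the fit was run on simulated counts drawn independently for each gene, which does not cover genes that move together. The study used DESeq2, run here (1.42.0) as an alternative. Other alternatives were limma voom with sample quality weights (limma 3.58.1), DESeq2 size factors, no filter and the compared groups alone. Further ones took pig number or surrogate variables (sva 3.50.0) as covariates, left out pigs 38, 39 and 46, or left out each library in turn. All 44 genes matched RefSeq by identifier and symbol, and gene positions are RefSeq's on Sscrofa11.1.

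Genes named with group values are those past the threshold in any contrast, in each role the 2 with the smallest p and the 1 with the largest in untreated IUGR against normal-sized piglets, and the smallest p of each other contrast. Of each other list the 2 with the smallest p are named, except for items not reported here, and MKI67, NASP, POLD3, MS4A1, CD79A, ALB and HNF4A were added after their values were seen. The 44 genes and all lists were chosen with earlier results of these data known.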

Additional observations from a re-analysis of the deposited data

Results flagged for a closer look

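Within the 10 untreated IUGR livers, pig 38 stood far from the rest in 10 of the 44 genes, beside 27.9% of all genes tested. This library differs across the genome, with a median correlation of 0.843 with the others. The gap to its nearest neighbour on the log2 CPM scale, as a share of the whole range of the group, exceeded Dixon's 95% critical value for 10 samples, which chance alone exceeds in about 1 group in 20. It was lowest for PRIM1 (1.4 CPM, share 0.714), CCNE2 (1.98 CPM, 0.627), PCNA (13 CPM, 0.583), RFC3 (2.21 CPM, 0.527), ORC6 (2.21 CPM, 0.499) and RRM1 (47.9 CPM, 0.474). It was highest for RFC2 (66.6 CPM, share 0.627), LIG1 (36.2 CPM, 0.577), E2F2 (24.7 CPM, 0.526) and UHRF1 (47.7 CPM, 0.520). The other groups have more than 10 livers and were not examined in this way.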

How the results depend on the processing

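For untreated IUGR against normal-sized piglets, the 2 genes past the threshold became 23 in DESeq2 on the groups compared. They became 21 in DESeq2 on all 4 groups, 24 in limma voom with sample quality weights and 8 with pig number as a covariate. Without pigs 38, 39 and 46 they became 27. The count was 0 with DESeq2 size factors in edgeR, with no filter on low counts, in edgeR on the groups compared and with surrogate variables. Leaving out each library in turn gave 0 to 21. For the supplement in normal-sized piglets, the 0 genes became 28 in DESeq2 on the groups compared, 10 in DESeq2 on all 4 groups, 34 in limma voom and 18 without pigs 38, 39 and 46, and 0 to 15 with each library left out. For IUGR over both levels of the supplement, 0 became 9 in DESeq2 on all 4 groups and 1 in limma voom. Where treated IUGR piglets were set against untreated normal-sized ones, 9 became 4 in DESeq2 on the groups compared, 16 in DESeq2 on all 4 groups, 22 in limma voom, 0 in edgeR on the groups compared, 4 with pig number and 0 with surrogate variables, and 0 to 18 with each library left out. The count was 0 under every alternative for the treated comparison, for the supplement in IUGR piglets and for the difference of the contrasts. No share over all genes is given for these counts. The shifts therefore cannot be read as particular to the replication genes, and their cause was not tested.

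The median log2 fold change moved by more than the spread between libraries (0.38) only with surrogate variables, to -0.27 (main -0.74) for untreated IUGR, -0.32 (main -0.70) for the supplement in normal-sized piglets and 0.31 (main 0.79) for the difference. Leaving out each library in turn kept it between -0.81 and -0.64, between -0.80 and -0.61 and between 0.70 and 0.90 in that order. Piglets of several groups shared a sow, but the labels give no litter. No test could therefore be paired by litter, and every test here leaves the litter out. Depth limits the precision at the lowest levels, such as 0.382 CPM.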

Other observations

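Among the 10 genes outside the 44 whose log2 CPM followed the mean of the 44 most closely over the 46 libraries were EZH2 (r = 0.93), LYAR (0.92), RMI2 (0.91), TUBB (0.90), NASP (0.89), EME1 (0.89), PRIM2 (0.89) and RAD54L (0.88). Without pigs 38, 39 and 46 these values were 0.91 to 0.95, and with labelled group means removed 0.83 to 0.90. EZH2 is the methyltransferase of Polycomb repressive complex 2, and RAD54L acts in the repair of DNA by homologous recombination. NASP carries histones. The median r with the mean of the 44 was 0.59 for the 46 other replication genes, 0.44 for the 26 mitosis genes, 0.33 for the 13 G1 cyclin and kinase genes and 0.08 for the 17 brakes, beside -0.01 for the 13736 other genes tested. It was -0.35 for the 15 erythroid and -0.30 for the 10 macrophage markers. These values describe 46 libraries that share their depth and scaling.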
